A study of Solanum tuberosum with 12 samples.

Results

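The comparison described here is that of potato leaves (Solanum tuberosum, cultivar Desiree) after 8 weeks at high temperature (HT) with leaves after 8 weeks at normal temperature (NT). It rests on 6 of the 12 libraries of the study, 3 for each temperature. Plants propagated in vitro were moved to soil and kept under 12 h of light a day, at a light intensity of 153 µmol per square metre and second, in both groups. Day and night temperatures were 35 °C and 29 °C for the HT plants, against 22 °C and 16 °C for the NT plants. RNA came from the upper 5 leaves, and no transgene or mutation is named for either group. Nothing in the labels ties the replicates to separate plants, so a p-value measures only the scatter of these samples, and that may be technical.

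High temperature is known to slow or stop tuber formation in potato, while stems and leaves go on growing. Tuber formation is triggered by a protein of the FLOWERING LOCUS T (FT) family that is made in leaves and moves through the phloem to the stolons, helped by the mobile RNA of the homeobox gene BEL5. In leaves, lasting warmth also acts on chaperones that hold unfolding proteins, on photosynthesis, on growth hormones such as gibberellins, and on the timing of senescence, in which chlorophyll and proteins are broken down and their nitrogen is exported.

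The data are raw read counts of the 5571 transcripts in the authors' list of changes at 8 weeks, 16.3% of their 34088 tests. Every listed transcript had an absolute log2 change of at least 1.5 in the authors' deposited table, so the calls given here are not independent evidence of a change, and transcripts that did not change are not in the list. The libraries held 52514661 to 66602938 counts by totals solved from the deposited table. Listed transcripts took 16.2% to 20.1% of the counts in 5 libraries and 23.2% in HT replicate 1. Levels below are RPKM (reads set against transcript length and the scaled library total), and values in a row are always in the order of replicates 1, 2 and 3. A log2 change is that of HT against NT, with ± its approximate standard error, from 3 libraries a group.

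Of the 5571 transcripts, 5176 had enough counts to test with edgeR, and 5035 of them (97.3%) were called at an adjusted p under 0.05. Higher at HT were 3068 (59.3% of those tested) and lower were 1967 (38.0%). In 5206 of the 5571 listed (93.4%) the 3 HT libraries lay wholly above or wholly below the 3 NT libraries. Transcripts named below for their abundance or as list members were drawn from calls with the groups apart. A lack of overlap in them is therefore not a result. Adjustment over all 34088 tests of the authors left 1789 higher (34.6%) and 1169 lower (22.6%). The direction split depends on how the libraries are scaled: with DESeq2's own size factors, computed from the listed transcripts, 1431 of 5498 were higher (26.0%) and 2166 lower (39.4%). The median log2 change over the transcripts tested was 1.80 on the main scale, 1.52 with TMM and 0.55 with those size factors. Calls of a gene list are therefore given on both scales where a count is led with, and a list's share of calls is not read as a result, since nearly all listed transcripts are called. Of all calls 60.9% were higher on the main scale and 39.8% with DESeq2's own size factors, and the split of a list is to be read against these shares.

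Libraries HT replicate 1 and NT replicate 3 stood apart from their groups. HT replicate 1 was the HT library farthest from the NT mean in 2101 of the 3068 higher calls (68.5%) and in 1519 of the 1967 lower calls (77.2%). In the higher calls the median distance from the NT mean was 2.65, 1.87 and 2.05 for HT replicates 1, 2 and 3, and in the lower calls it was 2.91, 2.19 and 1.79, on a log2 scale of RPKM with 0.1 added. HT replicate 1 lay over 4-fold above both other HT libraries in 354 listed transcripts and over 4-fold below both in 171. HT replicate 3 did so in 124 and 6, and NT replicate 3 in 20 and 130. For HT replicate 2 and NT replicates 1 and 2 these numbers were at most 37. Without HT replicate 1 there were 2763 higher and 1974 lower calls, without NT replicate 3 there were 2876 and 1849, and without both there were 2748 and 1923.

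**Figure D1:**
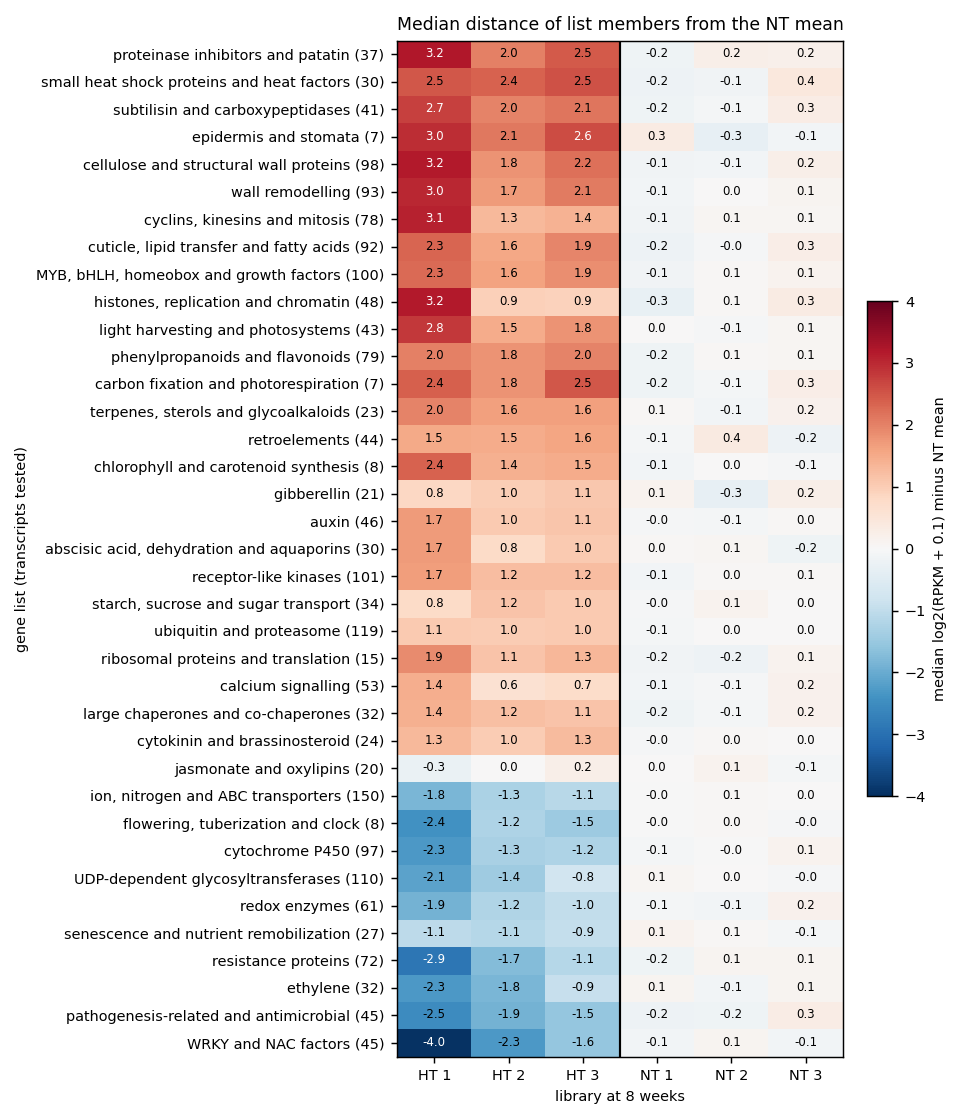
Median log2 distance of the tested members of 37 gene lists from the mean of the NT libraries (rows, colour and printed value) in each of the 6 libraries (columns), on log2 of RPKM with 0.1 added. The HT columns are red for lists of photosynthesis, division and wall genes and blue for WRKY and NAC factors, resistance and pathogenesis-related proteins, and HT replicate 1 has the deepest colour in most rows.

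Photosynthesis transcripts, which stand for the leaf mesophyll, were higher at HT, and most of the higher calls with the highest levels were among them. The light harvesting and photosystem list holds antenna proteins, photosystem subunits and ferredoxins matched by name. In it 42 higher and 1 lower of 43 tested were called (19 and 1 with DESeq2's own size factors). The lower one was a ferredoxin homolog (PGSC0003DMG400006917). Pigment-binding protein CP29 (PGSC0003DMG400008488), which was higher, and early light inducible protein, which was lower, are not in the list. The summed level of the list was 55294, 20599 and 26566 RPKM at HT and 8002, 7559 and 8430.1 RPKM at NT. All 7 carbon fixation members were higher (2 and 0 with DESeq2's own size factors), and chlorophyll and carotenoid synthesis stood at 7 higher and 1 lower (2 and 1 with DESeq2's own size factors). The 29 chlorophyll a/b binding and rubisco transcripts, taken as mesophyll markers, were all higher (14 with DESeq2's own size factors), and none was without counts in any group. Fewer cells of a type and less RNA per cell cannot be told apart in these bulk samples, here or below.

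The small chain C of rubisco, the enzyme that fixes carbon dioxide, stood at 13849, 10616 and 8233 RPKM at HT and 2529, 2323 and 3217 RPKM at NT (PGSC0003DMG400024182). By the rule that named it each HT library was above each NT library. The log2 change was 2.02 ± 0.43 (edgeR, adjusted p = 0.0038; 0.71 and not called with DESeq2's own size factors). Chlorophyll a-b binding protein 1B, an antenna protein (PGSC0003DMG400008297), had 6883, 3306 and 3607 RPKM at HT and 832, 731 and 754 RPKM at NT. HT replicate 1 held nearly the sum of the other two HT libraries, and the log2 change of 2.57 ± 0.46 (edgeR, adjusted p = 0.0023) was 2.16 without it. Fructose-bisphosphate aldolase, an enzyme of the Calvin cycle and of glycolysis (PGSC0003DMG400003123), had 3368, 3014 and 2821 RPKM at HT and 399.7, 398 and 319 RPKM at NT. Here the HT libraries were close to each other, and the log2 change was 3.04 ± 0.40 (edgeR, adjusted p = 0.0012). Carbonic anhydrase, which interconverts carbon dioxide and bicarbonate (PGSC0003DMG400000493), had 1927, 391 and 1521 RPKM at HT and 146, 128 and 130.3 RPKM at NT. Rubisco activase, which frees blocked rubisco (PGSC0003DMG400011072), had 334, 114 and 265 RPKM at HT and 4.55, 4.88 and 7.63 RPKM at NT, a log2 change of 5.39 ± 0.58 (edgeR, adjusted p = 0.00064). Both were lowest in HT replicate 2 among the HT libraries.

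Chlorophyll synthesis transcripts were higher too. Glutamyl-tRNA reductase, the entry step of the pathway (PGSC0003DMG400006381), had 164, 83.4 and 81.6 RPKM at HT and 28.3, 36.7 and 27.1 RPKM at NT, a log2 change of 1.84 ± 0.43 (edgeR, adjusted p = 0.0052; 0.49 and not called with DESeq2's own size factors). Chlorophyll synthase, its last step (PGSC0003DMG400017570), had 77.6, 28.2 and 35.8 RPKM at HT and 7.20, 8.99 and 6.49 RPKM at NT, a log2 change of 2.64 ± 0.49 (edgeR, adjusted p = 0.0026). All 3 listed transcripts of NADPH:protochlorophyllide oxidoreductase, which makes the light-driven step, were higher (1 with DESeq2's own size factors). In PGSC0003DMG400015356, one of them, the levels were 385, 27.3 and 49.5 RPKM at HT and 5.72, 6.69 and 6.52 RPKM at NT, and the log2 change of 4.61 ± 1.0003 (edgeR, adjusted p = 0.0041) was 2.61 without HT replicate 1. The member that was lower, beta-carotene hydroxylase (PGSC0003DMG400010169), had 0.263, 0 and 0.242 RPKM at HT and 3.91, 4.09 and 0.227 RPKM at NT, so that NT replicate 3 overlapped the HT libraries, and its call was lost without NT replicate 1 or 2 (adjusted p = 0.059 and 0.061).

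The abundant transcripts that were lower had other roles in the same tissue. Catalase, which removes hydrogen peroxide made in photorespiration (PGSC0003DMG400029408), had 1387, 3238 and 2197 RPKM at HT and 6526, 7652 and 8419 RPKM at NT, a log2 change of -1.73 ± 0.47 (edgeR, adjusted p = 0.0088). Early light inducible protein, which binds free pigment under light stress (PGSC0003DMG400006442), had 133, 393 and 199 RPKM at HT and 2069, 996 and 761 RPKM at NT, a log2 change of -2.40 ± 0.59 (edgeR, adjusted p = 0.0061). Vacuolar processing enzyme 1, a protease that matures vacuolar proteins (PGSC0003DMG400013828), had 36.04, 54.4 and 102 RPKM at HT and 2906, 2681 and 1272 RPKM at NT. The HT libraries held at most 102 RPKM and the NT libraries at least 1272, and the log2 change was -5.16 ± 0.63 (edgeR, adjusted p = 0.0009). Malic enzyme (PGSC0003DMG400033874) changed by -2.28 ± 0.54 (edgeR, adjusted p = 0.0057), and delta TIP, a water channel of the vacuole membrane (PGSC0003DMG400002552), by -2.48 ± 0.51 (edgeR, adjusted p = 0.0035).

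**Figure D2:**
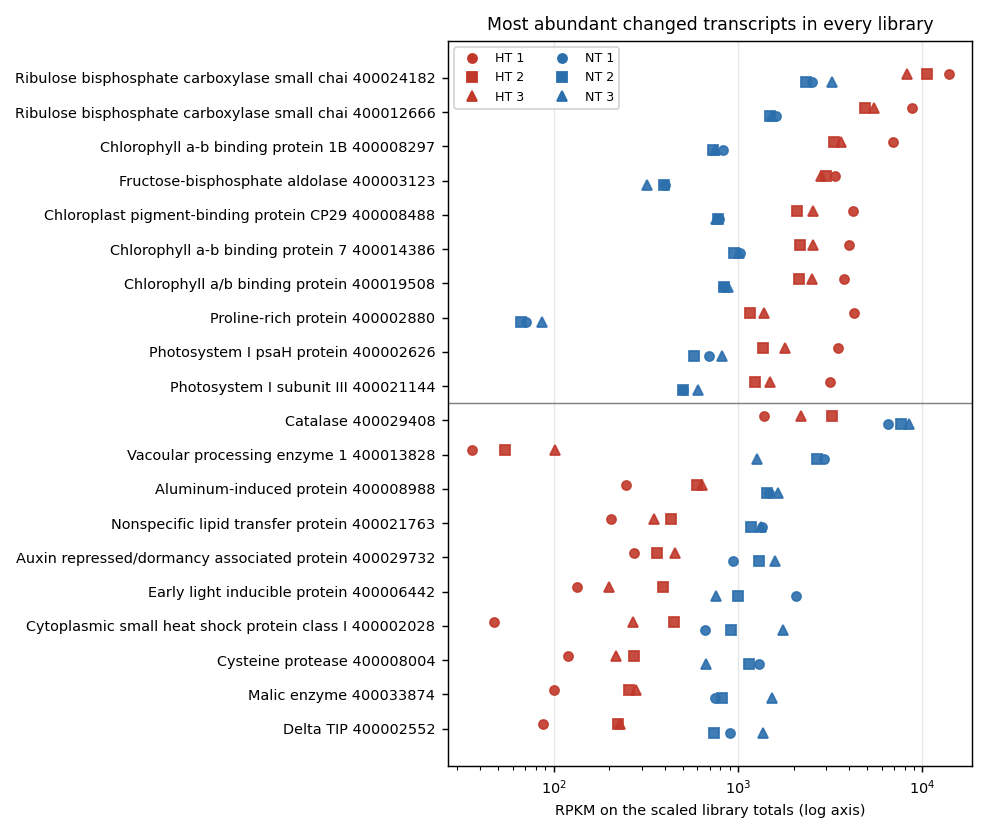
RPKM on a log axis of the 10 higher calls most abundant at HT (above the line) and the 10 lower calls most abundant at NT (below it), one symbol per library, red for HT and blue for NT. The groups do not overlap in any row by the rule that chose them, and catalase had 1387 RPKM or more in all 6 libraries.

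Transcripts of cell division and DNA replication were higher at HT, most of all in HT replicate 1. Of the cyclins, kinesins and mitosis list 72 higher and 6 lower of 78 tested were called (26 and 7 with DESeq2's own size factors), and of the histones, replication and chromatin list 42 higher and 2 lower of 48 (6 and 2 with DESeq2's own size factors). Median distances from the NT mean were 3.07, 1.29 and 1.41 for the 3 HT libraries in the first list and 3.17, 0.95 and 0.92 in the second. Over all listed transcripts tested they were 1.74, 1.21 and 1.35. In HT replicates 2 and 3 the first list was thus near that level and the second below it, and only HT replicate 1 was well above it. Without HT replicate 1 the higher calls were 46 and 18, without NT replicate 1 they were 46 and 16, and without NT replicate 2 the second list had 19. HT replicate 1 lay over 4-fold above both other HT libraries in 29 of the 81 members of the first list and in 29 of the 48 of the second.

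Alpha-tubulin, the building block of microtubules (PGSC0003DMG400008752), had 1147, 785 and 825 RPKM at HT and 257, 235 and 354 RPKM at NT, and its log2 change of 1.71 ± 0.40 (edgeR, adjusted p = 0.0053; 0.40 and not called with DESeq2's own size factors) was 1.51 without HT replicate 1. A second alpha-tubulin (PGSC0003DMG400004962) had 206, 92.1 and 111 RPKM at HT and 14.97, 14.3 and 25.98 RPKM at NT, a log2 change of 2.89 ± 0.49 (edgeR, adjusted p = 0.002). These were higher in each HT library than in any NT library, as the rule that named them required. Histone H2A.1, a core protein of the nucleosome (PGSC0003DMG400024748), had 234, 44.6 and 45.1 RPKM at HT and 21.2, 21.2 and 34.4 RPKM at NT. HT replicate 1 held the high value behind its log2 change of 2.08 ± 0.70 (edgeR, adjusted p = 0.02; 0.63 and not called with DESeq2's own size factors), which was 0.81 without that library (adjusted p = 0.055) and was also not called without NT replicate 1 or NT replicate 2 (0.069 and 0.069). DNA topoisomerase 2, which untangles replicated DNA (PGSC0003DMG400006793), had 10.2, 0.498 and 0.451 RPKM at HT and 0.190, 0.314 and 0.257 RPKM at NT, and was not called without HT replicate 1 (log2 change 0.90, adjusted p = 0.083), NT replicate 1 (0.056) or NT replicate 3 (0.053). The call was also lost with the replicate block (log2 change 2.08, adjusted p = 0.078), and DESeq2 gave no adjusted p.

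Some members of both lists were lower and belonged to the abundant ones. H1 histone, which binds the DNA between nucleosomes (PGSC0003DMG400003632), had 81.5, 92.7 and 150.2 RPKM at HT and 475, 529 and 217 RPKM at NT, a log2 change of -1.91 ± 0.48 (edgeR, adjusted p = 0.0066). Tubulin alpha-6 chain (PGSC0003DMG400025735) had 29.3, 47.9 and 44.4 RPKM at HT and 335, 192 and 189 RPKM at NT, a log2 change of -2.56 ± 0.43 (edgeR, adjusted p = 0.002). The summed level of the histone list was 1443, 370.1 and 426 RPKM at HT and 585, 654 and 395 RPKM at NT, so that HT replicates 2 and 3 did not exceed NT replicates 1 and 2 in the sum although most members were higher. Growth-regulating factor 3, a transcription factor of young organs (PGSC0003DMG400013004), was among the transcripts in which HT replicate 1 stood farthest above the other HT libraries, with 6.45, 0.0951 and 0.173 RPKM at HT and 0.0644, 0.0398 and 0.162 RPKM at NT. HT replicates 2 and 3 overlapped the NT libraries, and its log2 change was 0.58 without HT replicate 1 (adjusted p = 0.53), against 4.63 with it. It was also not called without NT replicate 1 or 2 (log2 change 4.46 and 4.28) or with the replicate block (2.42), and DESeq2 gave no adjusted p. The summed level of 67 dividing-cell markers (cyclins, kinesins and histones) was 1399.8, 387 and 441 RPKM at HT and 580.3, 636 and 378 RPKM at NT, and their part in these results was not tested.

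**Figure D3:**
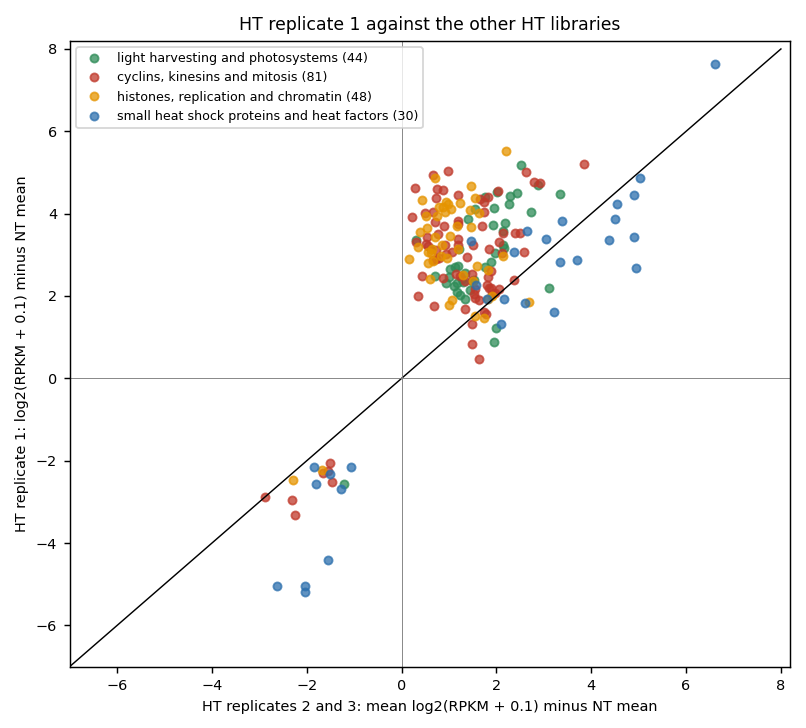
Log2 distance from the NT mean of each member of 4 gene lists in HT replicate 1 (vertical axis) against the mean of HT replicates 2 and 3 (horizontal axis), on log2 of RPKM with 0.1 added, with the line of equality. Division, histone and light harvesting members lie mostly above the line, and small heat shock members scatter on both sides of it.

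Wall transcripts were mostly higher at HT. Of the list of cellulose and structural wall proteins 80 higher and 17 lower were called (47 and 18 with DESeq2's own size factors), and of the wall remodelling list 67 higher and 22 lower (47 and 27 with DESeq2's own size factors). The summed level of the first was 15544, 8694 and 8841 RPKM at HT and 3122, 3073 and 3916 RPKM at NT. That of the second was 1690.3, 941 and 1156 RPKM at HT and 1538, 1576 and 1174 RPKM at NT, so HT replicates 2 and 3 lay below every NT library although most members were higher. A proline-rich protein (PGSC0003DMG400002880) had 4241, 1159 and 1376 RPKM at HT and 70.7, 66.4 and 86.03 RPKM at NT, a log2 change of 4.92 ± 0.65 (edgeR, adjusted p = 0.0011). Xyloglucan endotransglucosylase-hydrolase XTH6, which cuts and rejoins the glucan chains that tie cellulose fibres (PGSC0003DMG400000408), had 116, 231 and 199.6 RPKM at HT and 7.39, 4.26 and 5.35 RPKM at NT, a log2 change of 5.01 ± 0.49 (edgeR, adjusted p = 0.00059). The related XTH5 went the other way (PGSC0003DMG400001809), with 24.4, 71.9 and 72.3 RPKM at HT and 448, 477 and 388 RPKM at NT and a log2 change of -2.96 ± 0.51 (edgeR, adjusted p = 0.0021). Cellulose synthase (PGSC0003DMG400011752) stood close together within each group, at 306, 372 and 361 RPKM at HT and 3.39, 2.94 and 3.93 RPKM at NT. Polygalacturonase, which cuts pectin (PGSC0003DMG400013516), had 64.02, 9.51 and 20.4 RPKM at HT and 0.438, 0.515 and 0.210 RPKM at NT, and the log2 change of 6.33 ± 0.86 (edgeR, adjusted p = 0.0013) was 5.26 without HT replicate 1.

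The subtilisin and carboxypeptidase list, secreted and vacuolar proteases, had 37 higher and 4 lower (22 and 5 with DESeq2's own size factors). An aspartic proteinase nepenthesin-1 (PGSC0003DMG400005409) had 509, 115 and 124 RPKM at HT and 5.39, 5.21 and 8.29 RPKM at NT, a log2 change of 5.31 ± 0.74 (edgeR, adjusted p = 0.0013). A serine carboxypeptidase III (PGSC0003DMG400020761) was lower, with a log2 change of -5.56 ± 0.68 (edgeR, adjusted p = 0.0009). The 9 listed guard cell and epidermis markers summed to 102 to 152 RPKM at HT and 13.9 to 22.8 RPKM at NT. Of the 7 tested members of the epidermis and stomata list 6 were higher and 1 lower (6 and 1 with DESeq2's own size factors). The lower one, epidermis-specific secreted glycoprotein EP1 (PGSC0003DMG400007073), is not among those markers. It had 12.4, 10.9 and 17.5 RPKM at HT and 50.0, 50.6 and 91.2 RPKM at NT. With it the list summed to 151, 104 and 113 RPKM at HT and 71.6, 63.9 and 107 RPKM at NT, so the groups overlapped in the sum. EPIDERMAL PATTERNING FACTOR 1, a secreted peptide that limits the number of stomata in Arabidopsis (PGSC0003DMG400016799), had 46.4, 43.02 and 36.3 RPKM at HT and 7.37, 4.48 and 6.10 RPKM at NT, a log2 change of 2.81 ± 0.40 (edgeR, adjusted p = 0.0014). EPIDERMAL PATTERNING FACTOR 9, which acts the opposite way there (PGSC0003DMG400007740), had 61.98, 33.4 and 35.5 RPKM at HT and 11.2, 6.12 and 7.001 RPKM at NT, a log2 change of 2.43 ± 0.46 (edgeR, adjusted p = 0.0028). Both were higher in every HT library, and so were factor 2 (PGSC0003DMG400030666, log2 change 3.00 ± 0.49 (edgeR, adjusted p = 0.0018)) and Erecta, the receptor kinase that binds such peptides in Arabidopsis (PGSC0003DMG400018811, log2 change 3.68 ± 0.43 (edgeR, adjusted p = 0.00078)).

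The heat response after 8 weeks was split. Of small heat shock proteins, which hold unfolding proteins, and heat stress factors 21 higher and 9 lower were called (15 and 9 with DESeq2's own size factors). Their median distances from the NT mean were 2.48, 2.35 and 2.55 in the 3 HT libraries. The summed level nevertheless was 767, 1543 and 1258 RPKM at HT and 1434, 1945 and 3365 RPKM at NT, and the 3 transcripts with the highest NT levels, all named cytoplasmic small heat shock protein class I, were lower. Cytoplasmic small heat shock protein class I (PGSC0003DMG400002028) had 47.7, 447 and 269.5 RPKM at HT and 664, 912 and 1753 RPKM at NT, and its log2 change of -2.12 ± 0.76 (edgeR, adjusted p = 0.025) was -1.63 and not called without NT replicate 3 (adjusted p = 0.090). HT replicate 1 lay over 4-fold below the other HT libraries, and NT replicate 3 was the highest of all 6.

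Further transcripts with the same product name (PGSC0003DMG400002029 and PGSC0003DMG400002027) had 9.32, 109.5 and 63.6 RPKM at HT and 215, 316 and 589 RPKM at NT and 10.2, 109 and 63.1 RPKM at HT and 214, 317 and 584 RPKM at NT. The values of this pair were nearly the same in each library, so they may share reads, and the first was not called without NT replicate 3 (adjusted p = 0.053). Higher and lower calls were found within class I, and 1 of the 5 transcripts with that cytoplasmic name was higher (PGSC0003DMG400023921). Among the higher calls, a small heat shock protein (PGSC0003DMG400011977) had 130.1, 132 and 158 RPKM at HT and 3.84, 3.33 and 6.42 RPKM at NT, a log2 change of 4.95 ± 0.46 (edgeR, adjusted p = 0.00049). The class II member Le-HSP17.6 (PGSC0003DMG400008187) had 161, 118 and 117 RPKM at HT and 10.9, 8.45 and 15.3 RPKM at NT, a log2 change of 3.51 ± 0.42 (edgeR, adjusted p = 0.00086). A chloroplast class I member (PGSC0003DMG400011632) had 44.6, 56.2 and 86.7 RPKM at HT and 2.502, 2.32 and 4.53 RPKM at NT, a log2 change of 4.32 ± 0.50 (edgeR, adjusted p = 0.00079). In these 3 the HT libraries lay far above the NT libraries, and HT replicate 1 did not stand apart.

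Large chaperones and co-chaperones stood at 18 higher and 14 lower (4 and 14 with DESeq2's own size factors). BCL-2-associated athanogene 6, a co-chaperone (PGSC0003DMG400000079), had 534, 900.2 and 975 RPKM at HT and 69.1, 70.3 and 48.4 RPKM at NT, a log2 change of 3.68 ± 0.46 (edgeR, adjusted p = 0.001). DnaJ proteins, co-chaperones of the heat shock 70 family, made up 10 of the 14 lower calls. One of them (PGSC0003DMG400003565) had 97.3, 205 and 75.3 RPKM at HT and 503, 752 and 757 RPKM at NT, a log2 change of -2.42 ± 0.50 (edgeR, adjusted p = 0.0034). Another (PGSC0003DMG400009869) had 41.4, 14.2 and 20.9 RPKM at HT and 242, 475 and 202 RPKM at NT, a log2 change of -3.59 ± 0.58 (edgeR, adjusted p = 0.0018). A heat shock cognate 70 protein (PGSC0003DMG400030405) had 10.9, 9.27 and 19.2 RPKM at HT and 86.7, 114 and 116 RPKM at NT, a log2 change of -3.01 ± 0.44 (edgeR, adjusted p = 0.0015). All 3 were lower in every HT library than in any NT library.

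Defence transcripts were mostly lower at HT. Resistance proteins, which sense pathogen effectors, stood at 21 higher and 46 lower (5 and 50 with DESeq2's own size factors), pathogenesis-related and antimicrobial proteins at 16 higher and 29 lower (10 and 31 with DESeq2's own size factors), and WRKY and NAC factors at 7 higher and 36 lower (4 and 40 with DESeq2's own size factors). The summed level of WRKY and NAC factors was 261, 724 and 1175 RPKM at HT and 3076, 3357 and 2962 RPKM at NT. The median distance of its members from the NT mean was -3.96, -2.28 and -1.56 on the log2 scale in HT replicates 1, 2 and 3. Receptor-like kinases stood at 59 higher and 41 lower (31 and 44 with DESeq2's own size factors). Their 59.0% of higher calls is near the 60.9% over all listed transcripts.

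MLO1, a membrane protein that many plants need for powdery mildew to enter (PGSC0003DMG400005351), had 7.96, 17.5 and 13.04 RPKM at HT and 84.2, 91.5 and 78.5 RPKM at NT, a log2 change of -2.72 ± 0.44 (edgeR, adjusted p = 0.0018). Class II chitinase, which cuts fungal walls (PGSC0003DMG400001528), had 60.6, 186 and 240.2 RPKM at HT and 629, 706 and 1254 RPKM at NT, a log2 change of -2.41 ± 0.59 (edgeR, adjusted p = 0.006). A double WRKY type factor (PGSC0003DMG400016769) had 21.01, 51.7 and 238 RPKM at HT and 428, 528 and 402 RPKM at NT. HT replicate 3 was over 4-fold above the other HT libraries, and the call was lost without HT replicate 2 or without any one NT library (adjusted p = 0.080, 0.063, 0.077 and 0.057 for HT 2 and NT 1, 2 and 3). A NAC domain protein (PGSC0003DMG400011891) had 126, 332 and 370.2 RPKM at HT and 895, 756 and 677 RPKM at NT, and its log2 change of -1.49 ± 0.48 (edgeR, adjusted p = 0.016) was not called without NT replicate 1 (adjusted p = 0.055). Defensin P322, an antimicrobial peptide, went the other way (PGSC0003DMG400015130), with 467, 205 and 145 RPKM at HT and 33.3, 33.1 and 43.9 RPKM at NT and a log2 change of 2.89 ± 0.52 (edgeR, adjusted p = 0.0025). Snakin-1, an antimicrobial peptide of the GASA family (PGSC0003DMG400021517), was also higher, by 2.46 ± 0.51 (edgeR, adjusted p = 0.0036).

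Calcium signalling transcripts, which relay many such stimuli, stood at 27 higher and 24 lower (10 and 27 with DESeq2's own size factors), and their summed level was 326, 425 and 669 RPKM at HT and 987, 1011 and 1194 RPKM at NT. CBL-interacting protein kinase 7 (PGSC0003DMG400007899) had 75.7, 68.8 and 91.8 RPKM at HT and 25.8, 24.1 and 22.9 RPKM at NT, a log2 change of 1.70 ± 0.35 (edgeR, adjusted p = 0.0035; 0.40 and not called with DESeq2's own size factors). A calmodulin, the calcium sensor (PGSC0003DMG400017965), had 25.8, 38.3 and 29.4 RPKM at HT and 79.97, 88.3 and 106 RPKM at NT, a log2 change of -1.55 ± 0.36 (edgeR, adjusted p = 0.0053). The groups did not overlap in either transcript, as the rule that named them required. Redox enzymes stood at 27 higher and 30 lower (17 and 38 with DESeq2's own size factors). Superoxide dismutase, which turns superoxide into hydrogen peroxide (PGSC0003DMG400027577), had 1327, 910.1 and 739 RPKM at HT and 84.7, 79.3 and 72.01 RPKM at NT, a log2 change of 3.66 ± 0.43 (edgeR, adjusted p = 0.00079), against the lower catalase above.

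Ethylene transcripts stood at 11 higher and 17 lower (6 and 20 with DESeq2's own size factors), with a summed level of 191, 299.8 and 568 RPKM at HT and 1057, 1133 and 1745 RPKM at NT. 1-aminocyclopropane-1-carboxylate oxidase 2, which makes ethylene (PGSC0003DMG400013894), had 9.66, 45.01 and 181 RPKM at HT and 520.3, 430.3 and 958 RPKM at NT, a log2 change of -3.02 ± 0.94 (edgeR, adjusted p = 0.015). The HT libraries were spread widely, with HT replicate 3 highest, and all lay below the NT libraries. An ethylene receptor homolog (PGSC0003DMG400031819) had 6.54, 8.38 and 11.8 RPKM at HT and 32.7, 34.5 and 32.98 RPKM at NT, a log2 change of -1.90 ± 0.38 (edgeR, adjusted p = 0.0032). Ethylene response factor 4, a transcription factor (PGSC0003DMG400016004), changed by -2.09 ± 0.42 (edgeR, adjusted p = 0.0031), and ERF1 (PGSC0003DMG400025989) rose from at most 0.286 RPKM at NT to 19.1, 15.1 and 18.5 RPKM at HT.

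Senescence and nutrient remobilization stood at 13 higher and 14 lower (9 and 14 with DESeq2's own size factors). The 4 transcripts with the highest NT means in the list were lower at HT, and other lower calls had under 1 RPKM in every NT library. The summed level was 1851, 1427 and 1526 RPKM at HT and 4559, 4227 and 2296 RPKM at NT. A cysteine protease (PGSC0003DMG400008004) had 119.6, 273 and 218 RPKM at HT and 1297, 1152 and 666 RPKM at NT, a log2 change of -2.35 ± 0.49 (edgeR, adjusted p = 0.0035). A cathepsin B-like proteinase (PGSC0003DMG400010362) had 130.4, 245 and 218 RPKM at HT and 1092, 947 and 647 RPKM at NT, a log2 change of -2.18 ± 0.44 (edgeR, adjusted p = 0.0032). Both directions were seen within one enzyme, glutamine synthetase, which binds ammonium into glutamine. Its transcript PGSC0003DMG400004355 had 941, 604 and 575 RPKM at HT and 150.5, 140.0 and 187 RPKM at NT, a log2 change of 2.15 ± 0.40 (edgeR, adjusted p = 0.0027). Its transcript PGSC0003DMG400013235 had 83.3, 178 and 208 RPKM at HT and 917, 732 and 588 RPKM at NT, a log2 change of -2.25 ± 0.47 (edgeR, adjusted p = 0.0036). At NT the second was the more abundant per length in each library, and at HT the first was.

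Ribonuclease T2, which degrades RNA (PGSC0003DMG400027453), had 151, 17.6 and 50.1 RPKM at HT and 0.491, 0.506 and 0.767 RPKM at NT, a log2 change of 6.95 ± 0.90 (edgeR, adjusted p = 0.0011). Cysteine proteinase 3 (PGSC0003DMG400027888) had 308, 23.2 and 139.6 RPKM at HT and 0.594, 0.502 and 0.665 RPKM at NT. In both transcripts HT replicate 1 was the highest and HT replicate 2 the lowest HT library, and the NT libraries were near 0. Ubiquitin and proteasome transcripts, which mark and degrade proteins, stood at 63 higher and 54 lower (27 and 56 with DESeq2's own size factors), with a summed level of 812, 963 and 1174 RPKM at HT and 2577, 2883 and 2587 RPKM at NT. A ubiquitin carrier protein (PGSC0003DMG400000090) had 39.2, 59.6 and 67.9 RPKM at HT and 280.1, 254 and 209.6 RPKM at NT, a log2 change of -2.16 ± 0.39 (edgeR, adjusted p = 0.0025), and a ubiquitin-protein ligase (PGSC0003DMG400026593) had 33.5, 87.1 and 164 RPKM at HT and 27.8, 17.2 and 24.6 RPKM at NT, a log2 change of 2.03 ± 0.58 (edgeR, adjusted p = 0.011; 0.79 and not called with DESeq2's own size factors). The ranges of the groups were apart in both by the rule that named them, narrowly so in the ligase.

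A group of 130 listed transcripts was over 4-fold lower in NT replicate 3 than in NT replicates 1 and 2. Of the 105 that had enough counts to test, 104 had a lower level at HT and 92 were called, against 97.3% called over all transcripts tested. Such transcripts could enter the authors' list through NT replicates 1 and 2 alone, which favours a lower level at HT. The direction is therefore not read as a result. In 67 of the 130, NT replicate 3 was at or below the highest HT library, whereas the groups were apart in 93.4% of all listed transcripts. Senescence-specific cysteine protease (PGSC0003DMG400010207) had 1.70, 1.42 and 1.37 RPKM at HT and 799.9, 881 and 5.61 RPKM at NT, and its log2 change was -8.55 with NT replicate 3 and -9.13 without it. Staygreen protein, which starts the breakdown of chlorophyll (PGSC0003DMG400010798), had 1.92, 0.715 and 2.71 RPKM at HT and 68.8, 106 and 2.91 RPKM at NT, a log2 change of -5.06 ± 1.17 (edgeR, adjusted p = 0.0052). NT replicate 3 was close to the HT libraries in both, and NT replicates 1 and 2 lay far above it.

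Transcripts of other roles were also low in NT replicate 3, at varied distances from the HT libraries. Flavonoid glycosyltransferase UGT94C2, which adds sugars to flavonoids (PGSC0003DMG400017250), had 0.268, 0.730 and 0.516 RPKM at HT and 263, 346 and 2.86 RPKM at NT. A 1-aminocyclopropane-1-carboxylate oxidase (PGSC0003DMG400009720) had 0.0341, 0 and 0.0656 RPKM at HT and 19.995, 16.1 and 1.82 RPKM at NT. Dehydrin DH2a, a protective protein of drying cells (PGSC0003DMG400034095), had 0.0598, 0.120 and 0 RPKM at HT and 14.2, 29.02 and 0.9996 RPKM at NT. In these 3 NT replicate 3 lay above every HT library and below NT replicates 1 and 2. Without NT replicate 3 their log2 changes were -9.21, -9.03 and -8.41. An anthranilate N-benzoyltransferase (PGSC0003DMG400004029) had 0.198, 0.114 and 0.0424 RPKM at HT and 15.3, 33.9 and 0.117 RPKM at NT, so that NT replicate 3 lay within the HT range. In 20 listed transcripts NT replicate 3 lay over 4-fold above its group, such as Sn-2 protein (PGSC0003DMG400023235), with 153, 229.6 and 269 RPKM at HT and 5.96, 6.35 and 50.6 RPKM at NT and a log2 change of 3.37 that was 5.14 without it. Why NT replicate 3 differs was not tested.

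**Figure D4:**
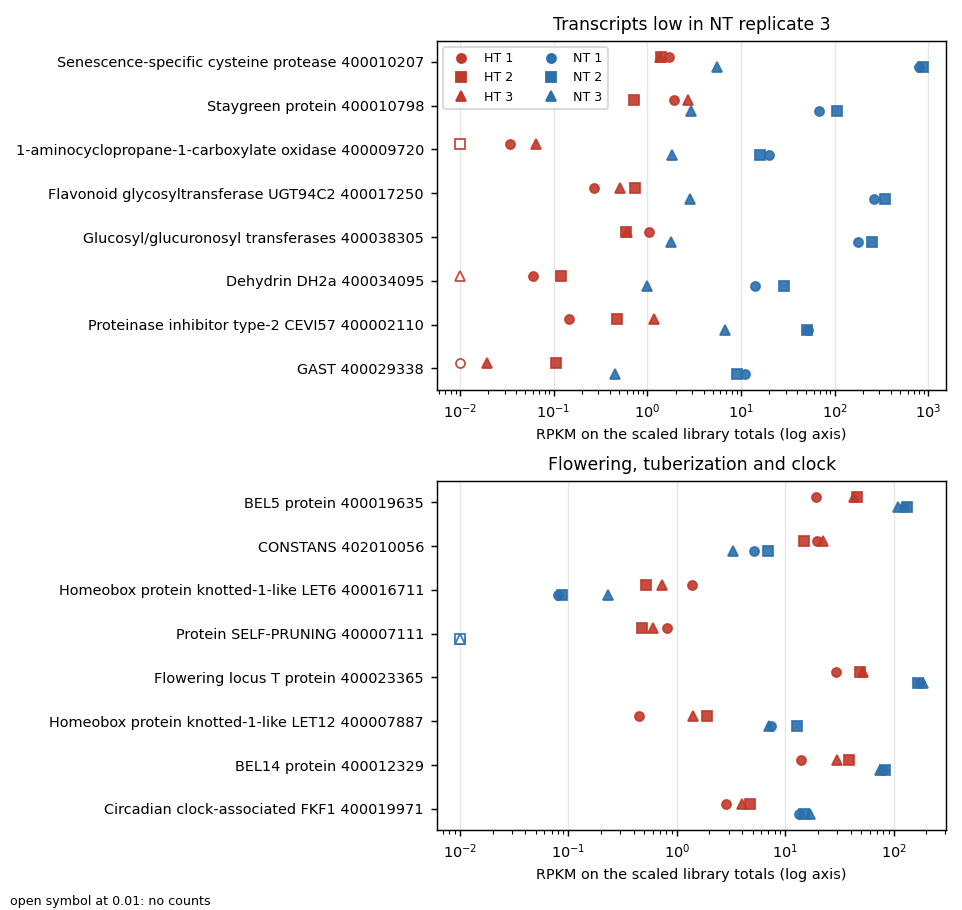
RPKM on a log axis of 8 transcripts low in NT replicate 3, chosen after their values were seen (upper panel), and of the 8 flowering, tuberization and clock transcripts (lower panel), one symbol per library, red for HT and blue for NT; open symbols at the left edge are libraries with no counts. In the upper panel the triangle of NT replicate 3 lies between the HT symbols and the other NT symbols in each row. In 67 of all 130 transcripts low in NT replicate 3 it was instead at or below the highest HT library. In the lower panel the groups do not overlap, as in 93.4% of all listed transcripts.

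Genes that bear on tuber formation, flowering and the clock were 3 higher and 5 lower (1 and 5 with DESeq2's own size factors). The groups overlapped in none of the 8, but they were also apart in 93.4% of all listed transcripts. The Flowering locus T protein (PGSC0003DMG400023365) had 29.5, 49.2 and 52.6 RPKM at HT and 174, 168 and 187 RPKM at NT, and its log2 change of -2.01 ± 0.39 (edgeR, adjusted p = 0.0028) was -1.79 without HT replicate 1. BEL5, whose RNA moves to the stolons (PGSC0003DMG400019635), had 19.1, 45.8 and 42.96 RPKM at HT and 126, 132 and 110.2 RPKM at NT, a log2 change of -1.77 ± 0.44 (edgeR, adjusted p = 0.0064). BEL14, of the same homeobox family (PGSC0003DMG400012329), had 13.95, 38.4 and 29.9 RPKM at HT and 79.1, 82.7 and 75.1 RPKM at NT, a log2 change of -1.53 ± 0.45 (edgeR, adjusted p = 0.011). In all 3 HT replicate 1 was the lowest library, and the NT libraries lay close together. Vascular markers (22 listed) were lower in their summed level, at 91.5 to 155 RPKM at HT and 280.2 to 525 RPKM at NT. Their calls were split, at 11 higher and 9 lower (9 and 11 with DESeq2's own size factors). Pollen and flower markers, 14 listed, were 8 higher and 5 lower (2 and 5 with DESeq2's own size factors), with a summed level of 79.1 to 171 RPKM at HT and 349 to 389.5 RPKM at NT. The part of either marker set in these results was not tested.

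The knotted-like homeobox genes split, LET12 (PGSC0003DMG400007887) with 0.446, 1.89 and 1.42 RPKM at HT and 7.33, 12.8 and 7.10 RPKM at NT and LET6 (PGSC0003DMG400016711) with 1.37, 0.521 and 0.736 RPKM at HT and 0.0798, 0.0878 and 0.231 RPKM at NT. Their log2 changes were -2.86 ± 0.62 (edgeR, adjusted p = 0.0041) and 2.70 ± 0.71 (edgeR, adjusted p = 0.0079; 1.38 and not called with DESeq2's own size factors). FKF1, a blue-light sensing F-box protein of the clock (PGSC0003DMG400019971), had 2.86, 4.70 and 3.99 RPKM at HT and 13.4, 15.04 and 16.8 RPKM at NT, a log2 change of -1.97 ± 0.39 (edgeR, adjusted p = 0.003). CONSTANS, a regulator of the day-length response (PGSC0003DMG402010056), had 19.5, 14.9 and 22.3 RPKM at HT and 5.19, 6.93 and 3.33 RPKM at NT, a log2 change of 1.88 ± 0.42 (edgeR, adjusted p = 0.0044; 0.57 and not called with DESeq2's own size factors). SELF-PRUNING, which in tomato delays flowering of the shoot (PGSC0003DMG400007111), was without counts at NT and had 0.809, 0.483 and 0.599 RPKM at HT, at least 18.9-fold higher against a floor of 3 counts over the NT libraries.

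Gibberellin transcripts, whose hormone promotes stem growth and opposes tuber formation, stood at 10 higher and 9 lower (4 and 10 with DESeq2's own size factors). Gibberellin 20-oxidase-1, a late step of synthesis (PGSC0003DMG400024249), had 45.7, 36.9 and 46.6 RPKM at HT and 13.5, 8.89 and 14.4 RPKM at NT, a log2 change of 1.81 ± 0.38 (edgeR, adjusted p = 0.0035; 0.51 and not called with DESeq2's own size factors). Gibberellin 3-oxidase, the last step (PGSC0003DMG400005698), had 6.39, 4.48 and 4.29 RPKM at HT and 1.03, 0.395 and 0.452 RPKM at NT, a log2 change of 3.01 ± 0.56 (edgeR, adjusted p = 0.0027). Gibberellin 2-oxidase 1, which inactivates the hormone (PGSC0003DMG400021095), had 0.226, 0.228 and 0.376 RPKM at HT and 2.25, 1.14 and 1.87 RPKM at NT, a log2 change of -2.65 ± 0.58 (edgeR, adjusted p = 0.0041). The groups did not overlap in these 3. Gibberellin 3beta-hydroxylase3, of the same step as the 3-oxidase, went the other way (PGSC0003DMG400029063), with 0.0128, 0.996 and 0.520 RPKM at HT and 6.98, 5.26 and 1.38 RPKM at NT, and was not called without NT replicate 1 (adjusted p = 0.080) or NT replicate 2 (0.064). Another transcript named gibberellin 2-oxidase 1 (PGSC0003DMG400011254) was not called (log2 change -2.36, edgeR, adjusted p = 0.064). It had 0.323, 0.657 and 0.287 RPKM at HT and 3.56, 2.90 and 0.069 RPKM at NT, so that NT replicate 3 lay below every HT library.

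The receptor GID1 had 4 transcripts lower and 1 higher. One of the lower (PGSC0003DMG401008665) had 2.97, 8.57 and 4.39 RPKM at HT and 30.2, 23.7 and 39.2 RPKM at NT, a log2 change of -2.55 ± 0.52 (edgeR, adjusted p = 0.0034). The higher one (PGSC0003DMG400003009) had 0.418, 1.06 and 0.721 RPKM at HT and 0.203, 0.134 and 0.260 RPKM at NT, and its call was lost without HT replicate 2 or 3 or NT replicate 1 or 2 (adjusted p = 0.092, 0.052, 0.059 and 0.069) and with DESeq2's own size factors. GAST1 protein, which gibberellin induces in tomato (PGSC0003DMG400007621), had 216, 45.2 and 53.1 RPKM at HT and 3.39, 4.06 and 8.48 RPKM at NT, a log2 change of 4.30 ± 0.76 (edgeR, adjusted p = 0.0023) that was 3.21 without HT replicate 1. Other transcripts of this name did not follow it. GAST (PGSC0003DMG400029338) had 0, 0.106 and 0.0197 RPKM at HT and 11.1, 9.02 and 0.457 RPKM at NT. It was lower, with a log2 change of -7.23 ± 1.46 (edgeR, adjusted p = 0.0032). Gast1 (PGSC0003DMG400003641) was lower too (log2 change -2.997, edgeR, adjusted p = 0.034). Protein GAST1 (PGSC0003DMG402001384) was not called (log2 change 1.99, adjusted p = 0.065).

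Other hormone lists were split, with 50.0% to 55.6% of their calls higher, against 60.9% over all listed transcripts. Auxin transcripts stood at 25 higher and 20 lower (10 and 21 with DESeq2's own size factors). Auxin members summed to 739.8, 789 and 922 RPKM at HT and 1914, 2434 and 2391 RPKM at NT. Auxin repressed/dormancy associated protein (PGSC0003DMG400029732) had 272, 363 and 452 RPKM at HT and 937, 1304 and 1593 RPKM at NT, a log2 change of -1.82 ± 0.41 (edgeR, adjusted p = 0.0047). The amido synthetase GH3.5, which conjugates auxin (PGSC0003DMG400021676), had 57.3, 32.02 and 44.6 RPKM at HT and 4.47, 2.87 and 3.07 RPKM at NT, a log2 change of 3.68 ± 0.43 (edgeR, adjusted p = 0.00081). Cytokinin and brassinosteroid stood at 13 higher and 11 lower (5 and 12 with DESeq2's own size factors), and DWARF1/DIMINUTO, which makes a brassinosteroid precursor (PGSC0003DMG400021142), had 151, 80.8 and 104 RPKM at HT and 1.62, 1.55 and 2.29 RPKM at NT, a log2 change of 5.94 ± 0.49 (edgeR, adjusted p = 0.00037). Abscisic acid, dehydration and aquaporins stood at 16 higher and 13 lower (8 and 15 with DESeq2's own size factors), and jasmonate and oxylipins at 10 higher and 10 lower (4 and 10 with DESeq2's own size factors). A lipoxygenase, which oxidises fatty acids at the start of oxylipin synthesis (PGSC0003DMG400032155), had 410.2, 476 and 301 RPKM at HT and 33.5, 46.2 and 62.8 RPKM at NT, a log2 change of 3.06 ± 0.44 (edgeR, adjusted p = 0.0014). The lipoxygenase PGSC0003DMG400010859 had 0.415, 0.771 and 14.2 RPKM at HT and 74.9, 71.002 and 93.5 RPKM at NT, a log2 change of -3.96 ± 1.23 (edgeR, adjusted p = 0.015). In the second HT replicate 3 was far above the other HT libraries. Over all 11 listed lipoxygenases 8 were higher and 3 lower (3 and 3 with DESeq2's own size factors).

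Proteinase inhibitors and patatin, which also mark tubers and wounded leaves, stood at 26 higher and 9 lower (18 and 9 with DESeq2's own size factors). The summed level was 2735, 762 and 1311 RPKM at HT and 396, 418 and 466 RPKM at NT, the highest in HT replicate 1. A proteinase inhibitor (PGSC0003DMG400009268) had 1019, 286 and 466 RPKM at HT and 17.02, 13.7 and 22.8 RPKM at NT, a log2 change of 5.05 ± 0.61 (edgeR, adjusted p = 0.00088). Ethylene-responsive proteinase inhibitor 1 (PGSC0003DMG400003056) went the other way, with 4.39, 13.6 and 23.7 RPKM at HT and 191, 168 and 310.4 RPKM at NT and a log2 change of -4.003 ± 0.67 (edgeR, adjusted p = 0.0019). Of 8 patatin transcripts, the storage proteins of the tuber, 5 were higher and 2 lower (4 and 2 with DESeq2's own size factors), with a summed level of 69.2 to 166 RPKM at HT and 39.5 to 53.9 RPKM at NT. Miraculin, an inhibitor of the Kunitz family (PGSC0003DMG400010170), had no counts at NT and 9.43, 1.28 and 0.889 RPKM at HT, at least 174-fold higher.

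Starch, sucrose and sugar transport stood at 18 higher and 15 lower (8 and 17 with DESeq2's own size factors). The sum was 187, 307 and 289 RPKM at HT and 699.8, 824 and 498 RPKM at NT. Galactinol synthase, the first step to raffinose sugars (PGSC0003DMG400005216), had 26.2, 38.02 and 51.3 RPKM at HT and 3.57, 4.03 and 5.86 RPKM at NT, a log2 change of 3.10 ± 0.44 (edgeR, adjusted p = 0.0014). Beta-amylase PCT-BMYI, which releases maltose from starch (PGSC0003DMG400001855), had 6.32, 29.96 and 33.1 RPKM at HT and 180.4, 191 and 135 RPKM at NT, a log2 change of -2.87 ± 0.63 (edgeR, adjusted p = 0.0042). Sucrose synthase 2, which splits sucrose (PGSC0003DMG400013546), had 20.4, 18.7 and 36.6 RPKM at HT and 204, 237 and 55.2 RPKM at NT, a log2 change of -2.71 ± 0.61 (edgeR, adjusted p = 0.0046). The HT libraries were wholly on one side in all 3 by the rule that named them, and NT replicate 3 was the closest NT library in the last. Of the transporters of ions, nitrogen and the ABC type 68 higher and 80 lower were called (37 and 87 with DESeq2's own size factors). The transporters summed to 863, 1402 and 1425 RPKM at HT and 4117, 3979 and 3248 RPKM at NT. The vascular markers with the sums given above had 11 higher and 9 lower calls (9 and 11 with DESeq2's own size factors), and their part in the transport results was not tested. A component of the high-affinity nitrate transport system (PGSC0003DMG400018129) had 11.6, 102 and 79.6 RPKM at HT and 418, 312 and 284 RPKM at NT, a log2 change of -2.39 ± 0.71 (edgeR, adjusted p = 0.013).

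Lipid and secondary metabolism changed in both directions. Higher calls made up 62.6% in the cuticle and lipid list and 62.8% in the phenylpropanoid list, near the 60.9% over all listed transcripts. Cuticle, lipid transfer and fatty acid transcripts stood at 57 higher and 34 lower (41 and 35 with DESeq2's own size factors). Their summed level was 4637, 3905 and 3795 RPKM at HT and 4588, 4969.5 and 5641 RPKM at NT. A desaturase, which puts double bonds into fatty acids (PGSC0003DMG400007188), had 1258, 640.3 and 668 RPKM at HT and 160.1, 167 and 143 RPKM at NT, a log2 change of 2.45 ± 0.43 (edgeR, adjusted p = 0.0023). A fatty acid desaturase (PGSC0003DMG400036004) had 2.22, 6.07 and 42.3 RPKM at HT and 369, 554 and 716 RPKM at NT, a log2 change of -5.02 ± 1.08 (edgeR, adjusted p = 0.004), with HT replicate 3 over 4-fold above the other HT libraries. A sterol enzyme, delta(7)-sterol-C5(6)-desaturase (PGSC0003DMG400026401), was higher, with 183, 221 and 229 RPKM at HT and 14.2, 9.996 and 14.1 RPKM at NT and a log2 change of 4.05 ± 0.40 (edgeR, adjusted p = 0.00061). A sesquiterpene synthase, an enzyme that makes defence terpenes (PGSC0003DMG400010587), was lower, with 9.44, 30.5 and 23.7 RPKM at HT and 259.9, 217 and 299 RPKM at NT and a log2 change of -3.61 ± 0.53 (edgeR, adjusted p = 0.0015). The terpene, sterol and glycoalkaloid list as a whole stood at 14 higher and 8 lower (11 and 9 with DESeq2's own size factors).

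Phenylpropanoid and flavonoid transcripts stood at 49 higher and 29 lower (40 and 34 with DESeq2's own size factors). In sum they had 804, 682 and 852 RPKM at HT and 1350.3, 1699 and 1206 RPKM at NT. Chalcone synthase 2, the entry step of flavonoids (PGSC0003DMG400019110), had 58.5, 83.3 and 85.7 RPKM at HT and 34.4, 15.03 and 16.7 RPKM at NT, a log2 change of 1.78 ± 0.45 (edgeR, adjusted p = 0.0067; 0.48 and not called with DESeq2's own size factors). Flavonoid 3-hydroxylase, a later step (PGSC0003DMG400014013), had 3.39, 13.2 and 22.5 RPKM at HT and 159, 179.5 and 217 RPKM at NT, a log2 change of -3.83 ± 0.68 (edgeR, adjusted p = 0.0023). Cytochromes P450 stood at 41 higher and 55 lower (24 and 57 with DESeq2's own size factors) and UDP-dependent glycosyltransferases at 50 higher and 53 lower (25 and 58 with DESeq2's own size factors). In the P450 PGSC0003DMG400026586 the libraries of each group nearly coincided, at 369, 345 and 353 RPKM at HT and 33.1, 24.5 and 30.8 RPKM at NT, a log2 change of 3.59 ± 0.38 (edgeR, adjusted p = 0.00064). Of MYB, bHLH, homeobox and growth factors 76 higher and 19 lower were called (33 and 27 with DESeq2's own size factors). These factors summed to 738, 582 and 678 RPKM at HT and 642, 741 and 612 RPKM at NT. The factor BHLH071 (PGSC0003DMG400017540) had 149, 92.9 and 138 RPKM at HT and 1.92, 1.48 and 2.75 RPKM at NT, a log2 change of 5.95 ± 0.49 (edgeR, adjusted p = 0.00037).

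**Figure D5:**
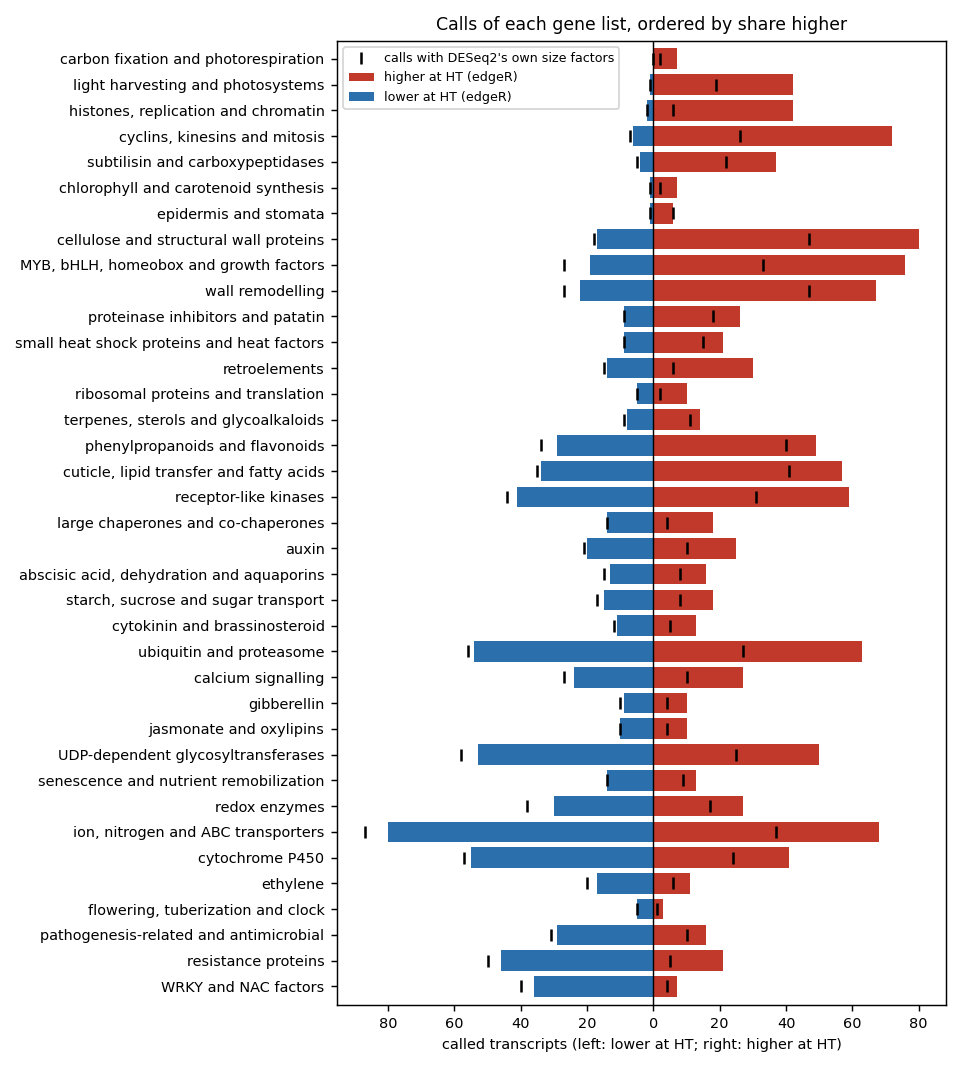
Number of called transcripts of 37 gene lists that were higher at HT (red, to the right) and lower at HT (blue, to the left), with black ticks for the calls obtained with DESeq2's own size factors. Photosynthesis, division and wall lists extend mostly to the right and WRKY, NAC and resistance lists to the left on both scales, while the black ticks shorten nearly all red bars.

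Of the 5571 transcripts listed at 8 weeks 580 were also listed at 3 weeks in other plants, which is 10.4% of the list at 8 weeks and 40.1% of the list at 3 weeks. By the authors' deposited log2 changes 270 of them were higher at both ages and 163 lower at both, 92 were higher at 3 weeks and lower at 8, and 55 the reverse. Over all shared transcripts 433 of 580 had the same direction at both ages. All 12 shared small heat shock and heat factor transcripts, all 9 shared chaperones and all 15 shared ubiquitin transcripts did. So did all 13 shared retroelements and all 8 shared calcium signalling transcripts. Of 7 shared light harvesting and photosystem transcripts 3 did. Of 14 shared phenylpropanoid transcripts 4 did, and of 11 shared proteinase inhibitors and patatins 2 did.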

How the data were processed

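Strand-specific libraries of poly(A) RNA were made from leaf RNA, per the labels' protocols. Not given in the sources used here are the aligner, the counter, the genome build and whether counting used strand. All tests used the deposited raw counts of the 6 libraries. The deposited group means are plain means of counts (a signal, not tested), and the larger group mean was deposited as RPKM, per the file headers. The authors' log2 fold change, their signed fold change (a score) and their p-values were used to recover the scaling and the number of tests. Library totals were solved from counts, lengths and RPKM, with a relative misfit of at most 1.89e-15. The authors' log2 changes differed from those on these totals by a median of -0.095 (interquartile range -0.113 to -0.075), and this shift was divided between the HT and NT totals.

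Tests used edgeR 4.0.16 in R 4.3.3 (quasi-likelihood F test, filterByExpr with a minimum count of 10, Benjamini-Hochberg adjustment over the listed transcripts tested, threshold 0.05), and were tested on simulated data. Standard errors were taken as the size of the log2 change divided by the root of F. DESeq2 1.42.0, TMM, no shift, no filter, stricter thresholds, a replicate block and libraries left out were the alternatives. Tables were handled with Python 3.11.15 and pandas 2.3.3. Gene identifiers had no match in the reference gene table, so product names of the files are used. The 37 gene lists are search patterns on these names. Transcripts with like names may share reads.

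Transcripts were named by this rule. Of calls with a known product and groups apart, the 10 higher and 10 lower most abundant were taken. From each list with at least 5 calls came, under the same conditions, the 2 most abundant and the largest change (mean of at least 10 counts) in each direction. The direction of a transcript named this way, and the lack of overlap in it, follow from the rule. All flowering, tuberization and clock members were taken, and the 5 transcripts (mean of at least 50 counts) with the most extreme HT replicate 1 or NT replicate 3. Only some of these are printed. Staygreen protein, carbonic anhydrase, glutamyl-tRNA reductase, chlorophyll synthase, beta-carotene hydroxylase, epidermal patterning factor 2, the gibberellin oxidases and hydroxylase, GID1 PGSC0003DMG400003009, ribonuclease T2, the ethylene receptor homolog, glutamine synthetase PGSC0003DMG400013235, lipoxygenase PGSC0003DMG400010859, DnaJ PGSC0003DMG400009869, the heat shock cognate 70 protein, the small heat shock proteins PGSC0003DMG400011632, PGSC0003DMG400002027 and PGSC0003DMG400023921, Gast1 and Protein GAST1 were chosen after their values were seen. The comparison, lists and rule were chosen with earlier results of these data known.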

Additional observations from a re-analysis of the deposited data

How the results depend on the processing

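The list holds only transcripts that passed the authors' thresholds, so false negatives and unchanged genes cannot be counted. With DESeq2's own size factors 1431 transcripts were higher, against 3068, and 2166 lower, against 1967, so the share of higher calls fell from 60.9% to 39.8%. Of the calls made on that scale 3323 were also called on the main one, and all of these had the same direction. Adjusted over the authors' number of tests, 1789 were higher and 1169 lower. Leaving out one library gave 2645 to 3042 higher and 1730 to 2045 lower. Leaving out both HT replicate 1 and NT replicate 3 gave 2748 and 1923, TMM 2895 and 2037, no shift 3083 and 1941, DESeq2 with the main scaling 3251 and 2133, no filter 3296 and 2067, and a threshold of 0.01 gave 2078 and 1374. With the replicate block there were 2827 higher and 1984 lower calls. In that fit the histone list had 25 higher calls against 42. The correlations of same-numbered HT and NT deviations were -0.088, 0.052 and 0.002, and those of differently numbered ones ran from -0.118 to 0.117. These values cannot decide whether the replicate numbers pair the libraries, since the deviations of 3 libraries from their own mean are tied to each other. The fit is therefore given as an alternative. Of 254 named transcripts with a call, 240 to 253 kept it when one library was left out, 207 of 249 with DESeq2's own size factors and 199 with the authors' number of tests, and no named transcript changed direction under any alternative run. The turn in the share of higher calls came with DESeq2's own size factors and not with its test, which gave 3251 higher and 2133 lower on the main scaling. Those size factors were computed only from listed transcripts, each with an absolute log2 change of at least 1.5 in the authors' table. The main scaling rests on totals of whole libraries. On it DESeq2 kept 249 of 249 named calls, so those lost with its own size factors were lost through the scaling. Which scaling is nearer to the true levels was not tested.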

Other observations

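Several product names that recur in the list moved almost wholly in one direction, and they were chosen after their values were seen. The 7 transcripts named abscisic acid receptor PYL4, of the family that senses abscisic acid, were all lower at HT, also with DESeq2's own size factors, and their summed level was 40.9, 71.0 and 47.6 RPKM at HT and 420.2, 344 and 245 RPKM at NT. Of the 8 named protein phosphatase 2C, the enzymes that such receptors block, 7 were higher and 1 lower (3 and 1 with those size factors). The lower one (PGSC0003DMG400032820) was the most abundant, with 17.5, 28.1 and 39.6 RPKM at HT and 88.0, 85.7 and 92.4 RPKM at NT, so that the sum of the 8 was lower at HT, at 43.97, 48.6 and 63.5 against 94.7, 93.2 and 98.5 RPKM. All 9 transcripts named Hcr2-0A, of a family that resembles receptors for fungal proteins in tomato, were lower (9 also with those size factors), and HT replicate 1 was below the other HT libraries in the sum, at 11.8 against 57.2 and 67.3 RPKM.

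All 7 transcripts named phospholipase A1, which releases fatty acids from membrane lipids, were higher (6 with those size factors). One of them (PGSC0003DMG402031759) held most of the summed level, with 301, 491 and 562 RPKM at HT and 7.08, 4.79 and 13.5 RPKM at NT. All 13 tested transcripts named anthocyanin acyltransferase, which attaches acyl groups to anthocyanins, were higher, with a summed level of 117, 77.0 and 72.8 RPKM at HT and 6.92, 11.02 and 9.22 RPKM at NT. Purine transporters had 1 higher and 6 lower, with a summed level of 26.0, 60.04 and 61.9 RPKM at HT and 337, 294 and 185 RPKM at NT. Retroelement and transposase transcripts stood at 30 higher and 14 lower (6 and 15 with DESeq2's own size factors), and without NT replicate 2 the lower calls were 9. Ribosomal proteins and translation factors stood at 10 higher and 5 lower (2 and 5 with DESeq2's own size factors), and without NT replicate 2 the lower calls were 3. Products of unknown function were 1302 of the 5571 listed (23.4%).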
